A study of Mus musculus with 8 samples.

Results

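The genes described here write, maintain and remove DNA methylation: the de novo methylation genes Dnmt3a, Dnmt3b and Dnmt3l, the maintenance genes Dnmt1 and Uhrf1, the TET dioxygenase genes Tet1, Tet2 and Tet3, and the glycosylase gene Tdg. They were chosen by name, as the 9 listed genes among the 17812 gene identifiers of the files, with earlier results of these data known. No cut on measured values was used to choose them, and all 9 passed the filter on low values that left 11271 genes for testing. RNA-seq had been made from mouse E14TG2a embryonic stem (ES) cells of the 129/Ola strain in 4 groups of 2 samples: unedited cells (WT) and cells in which 1 of 3 enhancers had been knocked out with CRISPR/Cas9 (E1-KO, E2-KO and E3-KO). The study asked how enhancers paired with the promoter of Sox2, a pluripotency transcription factor gene, act in these cells. All 4 groups grew on gelatin without feeder cells in a medium that held 15% fetal bovine serum, LIF at 1000 units per ml, the GSK3 inhibitor CHIR99021 and the MEK inhibitor PD0325901, so the 2 inhibitors were present together with serum in WT and knockout cells alike. The labels give neither the positions of the enhancers nor the number of clones behind a group, and no edited line with intact enhancers was analysed here. Loss of an enhancer, cell clone and culture therefore cannot be told apart in a knockout against WT.

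In mammals DNMT3A and DNMT3B place new methyl groups on cytosine, mostly at CpG, and DNMT3L, which has no catalytic activity of its own, binds and stimulates them. DNMT1, brought to replicated DNA by UHRF1, copies the pattern after each division, TET enzymes oxidise the methyl group, and TDG cuts out oxidised bases so that repair can restore cytosine. ES cells kept under GSK3 and MEK inhibition are known for low de novo methyltransferase expression and a sparsely methylated genome, and ES cells in serum without inhibitors for higher levels of both. DNA methylation itself was not measured here, and no sample without the inhibitors was analysed.

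Levels are FPKM, sequenced fragments normalised to transcript length and library size, and differences are log2 fold changes of FPKM + 1 from limma, which understate the change of genes at low FPKM. A call required an adjusted p-value under 0.05 (Benjamini-Hochberg over all tested genes, two-sided). Sample totals ran from 454974 to 532007 FPKM, and the number of reads behind them is unknown. Sox2 had a mean of 133.4 ± 4.05 FPKM in WT (SD, n = 2), 59.1 ± 1.58 (E1-KO), 105.5 ± 11.3 (E2-KO) and 94.3 ± 4.79 (E3-KO). The summed level of 6 ES cell markers, Sox2 among them, lay between 1401 and 1857 FPKM in all samples, with members going both ways. Esrrb had means of 235.1 FPKM (WT), 187.4 (E1-KO), 199.0 (E2-KO) and 151.7 (E3-KO). In the same order, Pou5f1 had 370.8, 447.6, 499.3 and 457.1 and Sall4 107.5, 123.8, 136.8 and 156.3. Nanog had 458.8, 514.7, 570.9 and 403.9 and Zfp42 190.8, 223.1, 276.5 and 200.2. Summed markers of other cells were lower and differed between groups, though WT and E3-KO overlapped for trophectoderm and mesoderm. The primitive endoderm sum (5 of 6 genes listed) was 1.59 to 1.65 FPKM in WT, 0.736 to 1.23 in E1-KO and E2-KO and 2.44 to 4.69 in E3-KO. The two-cell-like sum (4 of 6) was 0.989 to 1.21 in WT, 1.27 to 3.10 in E1-KO and E2-KO and 3.47 to 3.66 in E3-KO. The trophectoderm sum (6 of 6, mostly Tfap2c) was 38.1 to 41.3 in WT, 23.0 to 31.7 in E1-KO and E2-KO and 36.5 to 42.4 in E3-KO. Its members went both ways, also in E3-KO. Tfap2c had means of 33.7 FPKM (WT), 16.3 (E1-KO), 21.4 (E2-KO) and 27.8 (E3-KO). In the same order, Gata3 had 1.52, 1.66, 3.31 and 6.85 and Eomes 4.33, 6.15, 3.65 and 3.84. The mesoderm sum (4 of 4) was 2.39 to 2.94 in WT and 1.43 to 2.47 in the knockouts, with members going both ways. T had means of 1.90 FPKM (WT), 0.220 (E1-KO), 0.0979 (E2-KO) and 0.266 (E3-KO). In the same order, Mixl1 had 0.126, 0.621, 0.547 and 0.835 and Kdr 0.613, 0.860, 1.02 and 1.04, and Mesp1 was at 0.134 or less. The fibroblast sum (6 of 6 listed, Col1a2, Col3a1 and Postn at 0.2 FPKM or less) was 1.27 to 1.66 in WT and 3.39 to 9.68 in the knockouts. The neuroectoderm sum (3 of 4 listed, Neurog2 at 0 in all but 1 sample) was 5.54 to 6.43 in WT and 8.39 to 11.996 in the knockouts, and the part of these cells in the results was not tested. In bulk RNA, fewer cells with a transcript and less of it per cell cannot be told apart.

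The 3 de novo methylation genes were higher than in WT in every knockout, while the summed level of Tet1 and Tet2, the main TET genes of these cells, differed little. By WT level per length the order was Uhrf1, Tet1, Dnmt1, Tet2, Tdg, Dnmt3b, Dnmt3l, Dnmt3a and Tet3, where the samples of Dnmt3l and Dnmt3a overlapped, as did those of Dnmt3a and Tet3. In the knockouts the means of Dnmt3b and Dnmt3l were above that of Tdg. Of the 9 genes, 4 passed the test in E1-KO, all of them higher (Dnmt3a, Dnmt3b, Dnmt3l and Tet2), beside 38% of all tested genes called in either direction and 15% called higher. In E2-KO 5 of the 9 were called, where the background was 36.1%. Dnmt3a, Dnmt3b, Dnmt3l and Tet3 were higher (14.2% of all genes) and Tdg lower (22%). In E3-KO 6 of the 9 were called, where the background was 44.7%. Dnmt3a, Dnmt3b and Dnmt3l were higher (13.9% of all genes) and Dnmt1, Tet3 and Tdg lower (30.8%). The median log2 fold changes of the 9 genes were 0.28, 0.24 and 0.0041, beside -0.062, -0.076 and -0.15 over all tested genes (3 values in a row stand in the order E1-KO, E2-KO, E3-KO throughout). Since a large share of the transcriptome differed from WT, the counts alone do not set the 9 genes apart, and the sizes of their changes follow gene by gene. The median over all genes moved to 0.0028 in E3-KO under median-ratio scaling between samples, and the share of called genes that were higher moved from 31.1% to 49.9% in E3-KO and from 39.2% to 50.4% in E2-KO.

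**Figure D1:**
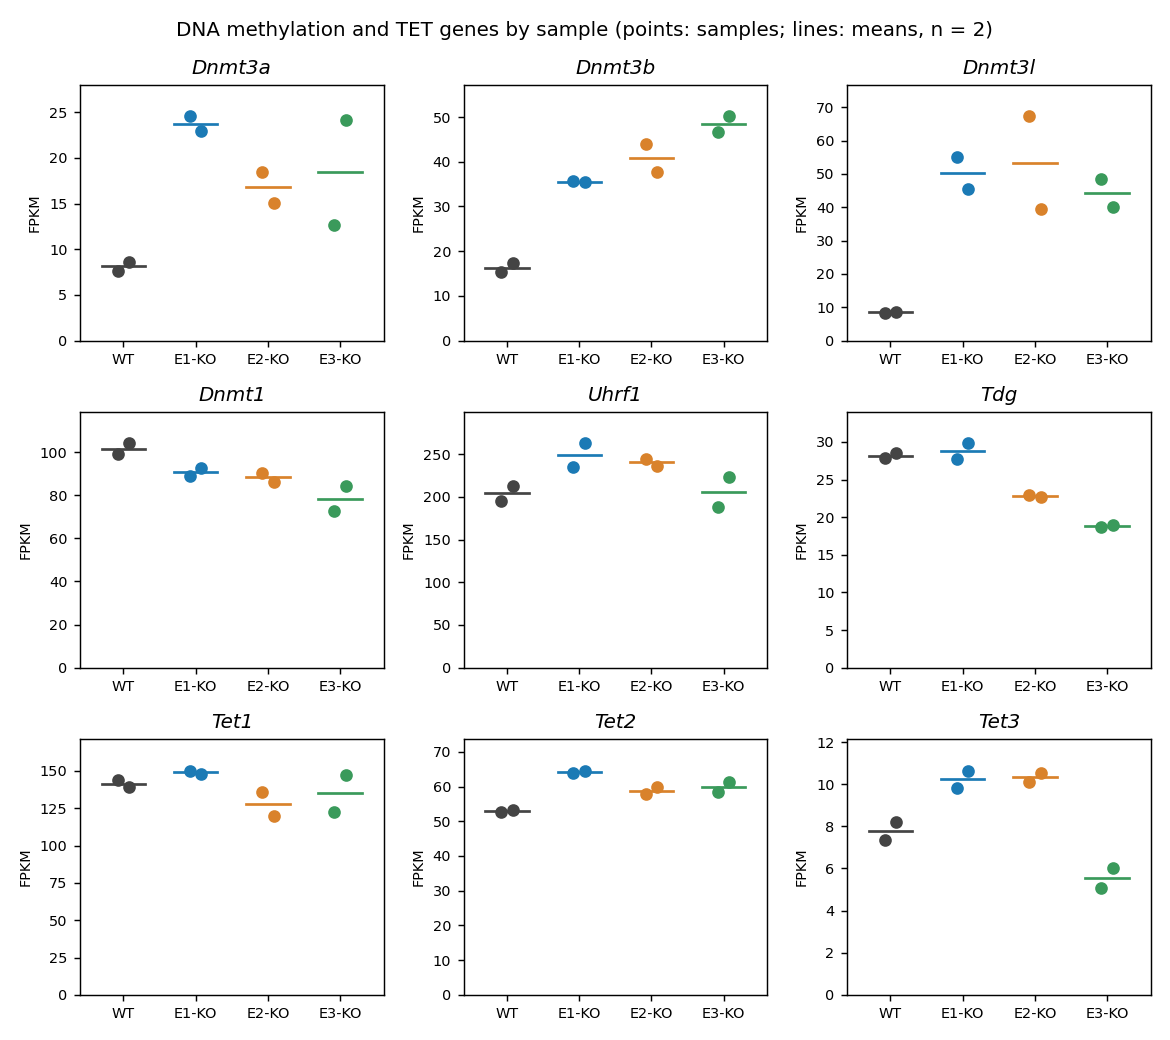
FPKM of the 9 genes in each of the 8 samples, 1 panel per gene with its own axis from 0. Points are samples and lines are group means (n = 2). The 6 knockout samples lie above both WT samples for Dnmt3a, Dnmt3b and Dnmt3l, whereas Tet1 lies between 119.5 and 150.2 FPKM in all samples.

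Dnmt3l, the regulatory partner of the de novo enzymes, showed the largest change of the 9 genes (ENSMUSG00000000730, GRCm38 chromosome 10, 78041947 to 78063622, plus strand). It stood at 8.38 and 8.69 FPKM (WT), 54.9 and 45.6 (E1-KO), 67.3 and 39.5 (E2-KO), and 48.5 and 40.1 (E3-KO). Every knockout sample lay at more than 39 FPKM and the groups did not overlap with WT, although the 2 E2-KO samples differed widely from each other. The group means were 5.89, 6.26 and 5.19 times that of WT, and Dnmt3l rose in each, with log2 fold changes of 2.42, 2.46 and 2.24 (SE 0.22, adjusted p = 0.00017, 0.000167 and 0.000143). These changes were at the 99.9th, 99.9th and 99.8th percentile of all tested genes. Exons of Dnmt3l share 67 bases with those of Aire on the opposite strand, and whether counting used strand is not stated. Aire itself stood at 9.84 ± 1.17 FPKM (WT), 11.03 ± 3.18 (E1-KO), 4.73 ± 1.30 (E2-KO) and 7.64 ± 3.71 (E3-KO), so it did not follow the order of Dnmt3l.

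Dnmt3b, the de novo enzyme with the higher level in these cells, changed with little spread (ENSMUSG00000027478, GRCm38 chromosome 2, 153649450 to 153687730, plus strand). It stood at 15.3 and 17.3 FPKM (WT), 35.7 and 35.4 (E1-KO), 44.0 and 37.8 (E2-KO), and 46.5 and 50.2 (E3-KO). The knockout groups did not overlap with each other or with WT, and ran in the order E1-KO, E2-KO, E3-KO. Dnmt3b rose in each, with log2 fold changes of 1.08, 1.27 and 1.51 (SE 0.11, adjusted p = 0.000273, 0.000164 and 6.03e-05), with means 2.18, 2.50 and 2.96 times that of WT. Neighbours in that order were not told apart, since E2-KO minus E1-KO was 0.19 (adjusted p = 0.388) and E3-KO minus E2-KO 0.24 (adjusted p = 0.173).

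Dnmt3a, the other catalytic de novo enzyme, was the least even of the 3 (ENSMUSG00000020661, GRCm38 chromosome 12, 3806007 to 3914443, plus strand). It stood at 7.67 and 8.59 FPKM (WT), 24.6 and 22.9 (E1-KO), 18.5 and 15.1 (E2-KO), and 12.7 and 24.2 (E3-KO). All knockout samples were above WT, and the 2 E3-KO samples spanned nearly the whole range of the knockouts. Dnmt3a rose in each, with log2 fold changes of 1.44, 0.96 and 1.03 (SE 0.24, adjusted p = 0.00227, 0.0146 and 0.00833). The E2-KO call was lost without E2-KO replicate 1, WT replicate 1 or WT replicate 2 (log2 fold changes of 0.82, 0.89 and 1.03, adjusted p = 0.0836, 0.0818 and 0.0574), and the E3-KO call without WT replicate 1 (0.95, adjusted p = 0.0521). The E3-KO value rested on its samples, at 0.59 without E3-KO replicate 2 and 1.47 without E3-KO replicate 1 (adjusted p = 0.0218 and 0.000776). An antisense transcript, Dnmt3aos, shares 133 exon bases with Dnmt3a on the opposite strand and is not listed in the files.

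The sequences before the annotated starts of these 3 genes are shown because the genes rose together while their promoters differ in CpG content. RefSeq windows on GRCm38.p6, from 250 bases before to 50 bases after a start, were found for all 9 genes, 16 windows in all, and the 250 bases before the start are printed 5′ to 3′ on the plus strand, with each CpG, the site that these enzymes methylate, in capitals. The files give 1 value per gene, so the start in use cannot be told from them. The bases shortly after Dnmt3a start 1 were found in no transcript of the gene in GENCODE M21, unlike those of all other windows.
Dnmt3a start 1, chr12:3806730-3806979: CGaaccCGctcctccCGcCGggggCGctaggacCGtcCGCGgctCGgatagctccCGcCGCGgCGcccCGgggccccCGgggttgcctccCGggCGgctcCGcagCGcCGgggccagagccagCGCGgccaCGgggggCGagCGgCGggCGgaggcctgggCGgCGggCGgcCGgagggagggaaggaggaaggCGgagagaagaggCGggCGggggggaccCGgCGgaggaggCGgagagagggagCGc
Dnmt3a start 3, chr12:3891494-3891743: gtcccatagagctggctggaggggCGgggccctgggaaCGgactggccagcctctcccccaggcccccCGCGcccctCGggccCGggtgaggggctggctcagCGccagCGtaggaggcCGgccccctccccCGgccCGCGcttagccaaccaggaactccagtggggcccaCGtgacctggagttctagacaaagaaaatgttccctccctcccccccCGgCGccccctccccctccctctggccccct
Dnmt3b, chr2:153649199-153649448: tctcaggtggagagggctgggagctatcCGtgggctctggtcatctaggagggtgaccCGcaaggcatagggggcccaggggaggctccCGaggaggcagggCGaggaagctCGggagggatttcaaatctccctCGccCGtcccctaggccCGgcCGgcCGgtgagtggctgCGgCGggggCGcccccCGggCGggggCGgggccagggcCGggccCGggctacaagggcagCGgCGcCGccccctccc
Dnmt3l start 1, chr10:78042037-78042286: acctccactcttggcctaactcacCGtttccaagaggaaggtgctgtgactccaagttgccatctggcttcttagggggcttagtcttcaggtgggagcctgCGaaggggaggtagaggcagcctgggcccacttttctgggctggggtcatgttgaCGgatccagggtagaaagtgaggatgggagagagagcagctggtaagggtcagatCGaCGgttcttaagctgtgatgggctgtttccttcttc
Dnmt3l start 2, chr10:78049592-78049841: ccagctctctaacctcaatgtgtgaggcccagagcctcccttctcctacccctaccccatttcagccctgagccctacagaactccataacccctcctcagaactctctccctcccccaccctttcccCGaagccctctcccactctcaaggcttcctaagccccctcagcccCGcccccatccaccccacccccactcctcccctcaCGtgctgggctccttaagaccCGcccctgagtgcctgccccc
Dnmt3l start 3, chr10:78055085-78055334: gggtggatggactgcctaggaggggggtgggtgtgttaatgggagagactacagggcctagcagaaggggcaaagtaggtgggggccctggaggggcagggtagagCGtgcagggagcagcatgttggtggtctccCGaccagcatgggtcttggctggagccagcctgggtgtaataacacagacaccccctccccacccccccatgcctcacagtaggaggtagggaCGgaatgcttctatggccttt
Over the full window of 300 bases, Dnmt3a had 46 CpG at start 1 (98.6th percentile of 32841 promoter windows), 47 at start 2, which overlaps start 1, and 18 at start 3. Dnmt3b had 30 (89.4th percentile). Dnmt3l had 6, 4 and 3 at its starts (47.9th, 38.0th and 31.4th percentile), beside a median of 7 over all windows. Dnmt3l, with the largest rise, had the fewest CpG among the 3. Dnmt3a rose more than Dnmt3b in E1-KO (1.44 and 1.08) and less in E2-KO (0.96 and 1.27) and E3-KO (1.03 and 1.51). A relation of CpG content to the rise was not tested. On both strands, CACGTG was found once at Dnmt3a start 3, once at Dnmt3l start 2 and once at Tdg, and in 7.15% of all windows. ACAAAG was found once at Dnmt3a start 3 and once at Dnmt3l start 3 (18.7% of all windows), and ACAATG in none of the 16 (12.6%). CCAAT was in none of the de novo gene windows (37.4% of all windows), while it occurred 3, 0 and 5 times in the Dnmt1 windows and 3 and 2 times in those of Uhrf1.

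The share of each gene in the summed de novo FPKM shifted towards the regulatory partner. In WT, Dnmt3b gave 49.5% ± 0.905 of the sum (SD, n = 2), Dnmt3l 25.9% ± 1.16 and Dnmt3a 24.6% ± 0.250. In the knockouts the share of Dnmt3l was 45.8% ± 2.72 (E1-KO), 47.3% ± 6.44 (E2-KO) and 40.03% ± 7.08 (E3-KO), with 35.0% in E3-KO replicate 2 as the lowest value, above both WT samples. The share of Dnmt3b was 32.5% ± 2.19, 37.4% ± 4.95 and 43.5% ± 0.446, below both WT samples in all 6 knockout samples. Across the 8 samples Dnmt3b and Dnmt3l had a Pearson r of 0.93 on the log2 scale, and Dnmt3a had 0.79 with Dnmt3b and 0.84 with Dnmt3l. These describe the split between WT and knockouts in the same libraries and carry no test.

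Of the maintenance genes, Dnmt1 was lower in 1 knockout and Uhrf1 passed the test in none. Dnmt1, the maintenance methyltransferase (ENSMUSG00000004099, GRCm38 chromosome 9, 20907209 to 20959888, minus strand), stood at 99.0 and 104.0 FPKM (WT), 88.7 and 92.4 (E1-KO), 90.3 and 86.2 (E2-KO), and 72.5 and 84.4 (E3-KO). All knockout samples lay below WT, by a small margin in E1-KO and E2-KO. In E3-KO its level fell by 0.37 on the log2 scale (SE 0.10, adjusted p = 0.0166), to 0.773 times the WT mean. The differences of -0.16 in E1-KO and -0.20 in E2-KO did not pass (adjusted p = 0.236 and 0.156, with 95% intervals of -0.39 to 0.068 and -0.43 to 0.031). The E3-KO call was lost under median-ratio scaling (-0.20, adjusted p = 0.156) and without E3-KO replicate 1, WT replicate 1 or WT replicate 2 (-0.26, -0.41 and -0.34, adjusted p = 0.0709, 0.0619 and 0.113).

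Uhrf1, which recruits DNMT1 to hemimethylated DNA (ENSMUSG00000001228, GRCm38 chromosome 17, 56303321 to 56323486, plus strand), had the highest level of the 9 genes. It stood at 195.5 and 213.2 FPKM (WT), 234.7 and 262.5 (E1-KO), 244.6 and 236.4 (E2-KO), and 188.1 and 222.8 (E3-KO). The E1-KO and E2-KO samples were above WT, and E3-KO overlapped with it. The log2 fold changes of 0.28, 0.24 and 0.0041 did not pass (adjusted p = 0.0874, 0.147 and 0.979, 95% intervals 0.016 to 0.55, -0.030 to 0.50 and -0.26 to 0.27). In E1-KO it was called under median-ratio scaling (0.35, adjusted p = 0.046), with the samples of the 2 groups alone (adjusted p = 0.0254) and without E3-KO replicate 2 (adjusted p = 0.0497). The ratio of Dnmt1 to Uhrf1 FPKM, which no scaling factor changes, was 0.507 and 0.488 in WT and between 0.352 and 0.385 in the 6 knockout samples, so the groups did not overlap for this ratio.

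The TET genes did not move as a family. Tet1, the most abundant of the 3 (ENSMUSG00000047146, GRCm38 chromosome 10, 62804570 to 62908996, minus strand), stood at 143.6 and 139.0 FPKM (WT), 150.2 and 147.8 (E1-KO), 135.7 and 119.5 (E2-KO), and 122.8 and 147.2 (E3-KO). The E1-KO samples were slightly above WT, the E2-KO samples slightly below, and E3-KO spanned it. The log2 fold changes of 0.076, -0.15 and -0.071 did not pass (adjusted p = 0.627, 0.339 and 0.639), with 95% intervals of -0.18 to 0.33, -0.41 to 0.11 and -0.33 to 0.19. In E1-KO and E3-KO the sign depended on the scaling (-0.059 under quantile normalization in E1-KO and 0.10 under median-ratio scaling in E3-KO).

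Tet2, the second TET gene of ES cells (ENSMUSG00000040943, GRCm38 chromosome 3, 133463679 to 133545139, minus strand), stood at 52.6 and 53.2 FPKM (WT), 63.9 and 64.6 (E1-KO), 57.9 and 59.8 (E2-KO), and 58.3 and 61.3 (E3-KO). All knockout samples were above WT, by little. Tet2 rose by 0.28 in E1-KO (SE 0.087, adjusted p = 0.034), and the differences of 0.15 (E2-KO) and 0.17 (E3-KO) did not pass (adjusted p = 0.203 and 0.133, 95% intervals -0.046 to 0.35 and -0.022 to 0.37). The E1-KO call was lost when E1-KO replicate 1 or 2 or WT replicate 1 or 2 was left out (0.28, 0.27, 0.27 and 0.28, adjusted p = 0.141, 0.15, 0.155 and 0.144), and under quantile normalization (adjusted p = 0.0665), scaling without the 50 highest genes (0.058) and limma without a trend (0.0607). In E3-KO, Tet2 was called under median-ratio scaling (0.34, adjusted p = 0.014). An antisense transcript shares 43 exon bases with Tet2 and is not listed in the files.

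Tet3, the TET gene with the lowest level here (ENSMUSG00000034832, GRCm38 chromosome 6, 83362373 to 83459084, minus strand), differed in direction between the knockouts. It stood at 7.33 and 8.20 FPKM (WT), 9.84 and 10.6 (E1-KO), 10.1 and 10.5 (E2-KO), and 5.07 and 6.04 (E3-KO). E1-KO and E2-KO lay above WT and E3-KO below it, with no overlap. Tet3 rose by 0.37 in E2-KO (SE 0.13, adjusted p = 0.0474) and fell by 0.42 in E3-KO (adjusted p = 0.0241), and the difference of 0.36 (E1-KO) missed the threshold (adjusted p = 0.0505). In E3-KO, many genes of chromosome 6 were lower with it. The median log2 fold change of the 536 tested genes there was -0.62 against -0.13 over the other chromosomes, and 64.7% of them were called lower. With the chromosome 6 median subtracted in E3-KO, Tet3 differed from WT by 0.20 (adjusted p = 0.233), and the cause of the lower chromosome 6 values was not tested. The other chromosomes kept their median of -0.13 in this subtraction, so it placed chromosome 6 above them. The E2-KO call was lost without E1-KO, E2-KO or WT replicate 1 or 2, each left out in turn (0.30 to 0.44, adjusted p up to 0.233), and the E3-KO call without E3-KO replicate 1, WT replicate 1 or WT replicate 2 (-0.31, -0.49 and -0.35, adjusted p = 0.102, 0.0569 and 0.155). The E2-KO call was also lost with the samples of the 2 groups alone, without the 50 highest genes in the scaling and without the filter (adjusted p = 0.0557, 0.0923 and 0.0738), and the E3-KO call with the samples of the 2 groups alone, under quantile normalization, under median-ratio scaling and without the 50 highest genes (adjusted p = 0.0553, 0.261, 0.119 and 0.054), while in E1-KO 8 of 18 alternatives gave a call (adjusted p down to 0.0188).

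Tdg, the glycosylase that removes oxidised methylcytosine (ENSMUSG00000034674, GRCm38 chromosome 10, 82629828 to 82650799, plus strand), was lower in 2 of the knockouts. It stood at 27.8 and 28.5 FPKM (WT), 27.7 and 29.8 (E1-KO), 22.9 and 22.7 (E2-KO), and 18.6 and 19.0 (E3-KO). E1-KO enclosed the WT values, and E2-KO and E3-KO lay below them in that order without overlap. Tdg fell by 0.29 on the log2 scale in E2-KO (SE 0.094, adjusted p = 0.0374) and by 0.56 in E3-KO (adjusted p = 0.00178), to 0.810 and 0.667 times the WT mean. In E1-KO the difference was 0.027 (adjusted p = 0.84, 95% interval -0.19 to 0.24). The E2-KO call was lost without replicate 1 or 2 of E1-KO, E2-KO or WT (-0.31 to -0.27, adjusted p up to 0.181) and under quantile normalization (-0.23, adjusted p = 0.0845) and median-ratio scaling (-0.21, adjusted p = 0.103), with the samples of the 2 groups alone (adjusted p = 0.0597) and with limma without a trend (adjusted p = 0.0544). Tdg shares 367 exon bases with Glt8d2 on the opposite strand, whose mean was 0.465 to 0.703 FPKM in the 4 groups.

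**Figure D2:**
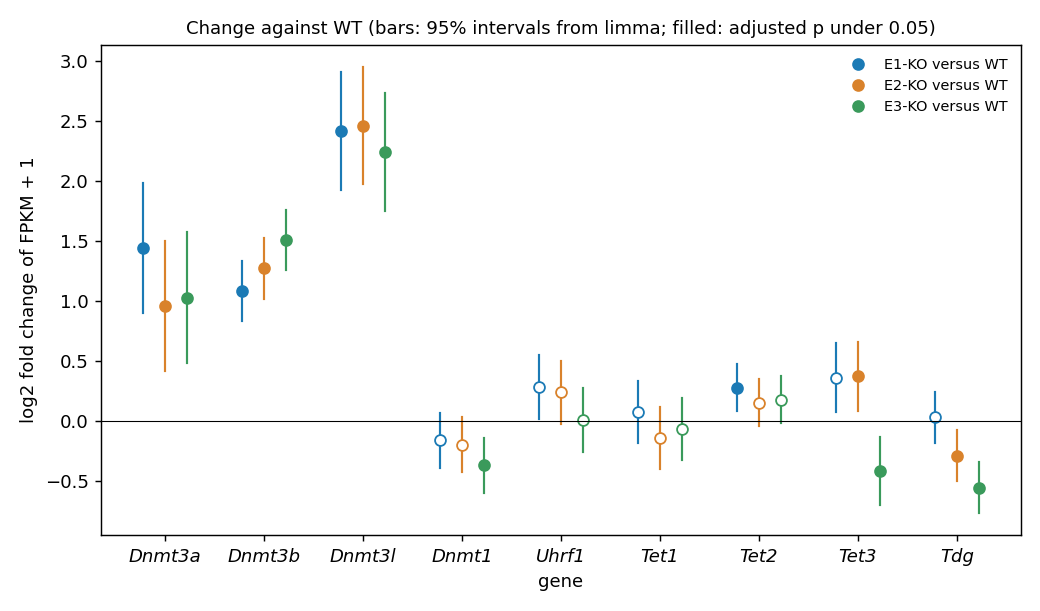
Log2 fold change of FPKM + 1 of each of the 9 genes in the 3 knockouts against WT, with 95% intervals from limma, and filled points where the adjusted p-value was under 0.05. The intervals of Dnmt3a, Dnmt3b and Dnmt3l lie above 0 in all knockouts, from 0.96 to 2.46 in the estimates, and those of Tet1 include 0.

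To describe the balance of writers and erasers in a form that no scaling factor between samples changes, the summed FPKM of Dnmt3a, Dnmt3b and Dnmt3l was divided by that of Tet1 and Tet2 in each sample. The ratio was 0.160 and 0.180 (WT), 0.538 and 0.489 (E1-KO), 0.670 and 0.515 (E2-KO), and 0.595 and 0.549 (E3-KO). Every knockout sample was more than 0.4 and both WT samples were under 0.2. The mean ratio was 3.02, 3.49 and 3.36 times that of WT and no test was made of this score. The numerator carried the shift, with sums of 33.0 ± 2.31 FPKM in WT and 109.6 ± 7.98, 111.0 ± 26.4 and 111.1 ± 4.74 in E1-KO, E2-KO and E3-KO (SD, n = 2). The denominator was 194.2 ± 2.78 FPKM (WT), 213.2 ± 1.24 (E1-KO), 186.5 ± 10.1 (E2-KO) and 194.8 ± 19.4 (E3-KO). With the catalytic genes Dnmt3a and Dnmt3b alone in the numerator, the ratio was 0.126 ± 0.0126 (WT), 0.278 ± 0.00471 (E1-KO), 0.309 ± 0.0195 (E2-KO) and 0.342 ± 0.0210 (E3-KO), or 2.21, 2.45 and 2.71 times WT. The ratio was thus higher than in WT in all 3 knockouts, with both inhibitors in the medium of every group. Where it would lie in cells without inhibitors was not measured.

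**Figure D3:**
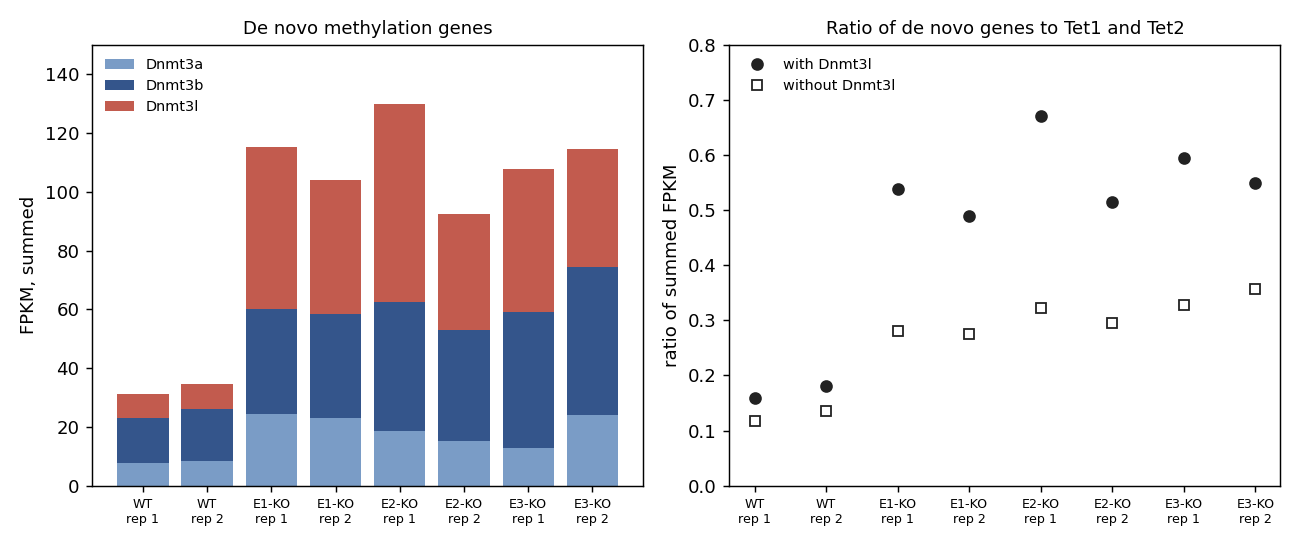
Left, summed FPKM of Dnmt3a, Dnmt3b and Dnmt3l in each sample as stacked bars from 0. Right, that sum divided by the summed FPKM of Tet1 and Tet2, with Dnmt3l (filled circles) and without it (open squares). The WT samples lie at 0.160 and 0.180 and the knockout samples at 0.489 to 0.670 with Dnmt3l in the sum.

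Within the TET family the make-up was steadier. Tet1 gave 70.0% ± 0.861 of the summed TET FPKM in WT and 66.7% ± 0.563, 64.8% ± 2.59 and 67.3% ± 1.86 in E1-KO, E2-KO and E3-KO. Tet3 gave 3.85% ± 0.347 (WT), 4.58% ± 0.268 (E1-KO), 5.26% ± 0.420 (E2-KO) and 2.77% ± 0.0651 (E3-KO). Tet3 therefore weighs little in the balance, and with it in the denominator the ratio was 3.00, 3.44 and 3.40 times that of WT.

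Between knockouts, Tet3 was the only 1 of the 9 genes called in E3-KO against both E1-KO and E2-KO. The share of all genes called in both comparisons was not counted. Against E1-KO, 3 of the 9 were called, where the background was 25.8% (9.41% higher and 16.4% lower). Dnmt3b was higher by 0.43 (adjusted p = 0.0209), and Tet3 and Tdg were lower, with log2 differences of -0.78 and -0.59 (adjusted p = 0.00273 and 0.00255). Against E2-KO only Tet3 was called, at -0.79 (adjusted p = 0.0049), where the background was 15.6% (5.48% higher and 10.1% lower). Of the tested chromosome 6 genes, 63.2% were called lower in E3-KO than in E1-KO and 57.8% lower than in E2-KO. Both Tet3 differences shrank with the chromosome 6 median of E3-KO against WT subtracted. They were then -0.16 against E1-KO and -0.18 against E2-KO (adjusted p = 0.37 and 0.38). The Dnmt3b difference was lost without E1-KO replicate 1, E1-KO replicate 2 or E3-KO replicate 2 (0.44, 0.43 and 0.38, adjusted p = 0.106, 0.105 and 0.077). E2-KO and E1-KO differed in 0 of the 9 genes by limma at the adjusted threshold, where 0.834% of all genes were called. Only Tdg had an unadjusted p under 0.05 (log2 difference -0.32, adjusted p = 0.131), and the share of all genes at that unadjusted threshold was not counted. For Dnmt3l, the 95% intervals were -0.45 to 0.53 for E2-KO minus E1-KO, -0.67 to 0.31 for E3-KO minus E1-KO and -0.71 to 0.27 for E3-KO minus E2-KO, and differences within them were not detectable here. Leaving out 1 sample made calls of Dnmt3l in E3-KO minus E2-KO (-0.60 without E2-KO replicate 2, adjusted p = 0.0435), and of Dnmt3a and Uhrf1 in E3-KO minus E1-KO (-0.85 and -0.40 without E3-KO replicate 2, adjusted p = 0.00819 and 0.0469).

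The wider pathway was read from lists of partners and targets. Counts in each list stand beside 38%, 36.1% and 44.7% of all tested genes called, of which 15%, 14.2% and 13.9% of all genes were higher and 23%, 22% and 30.8% lower. Of the 7 maintenance and replication partners, 1 rose in every knockout, none fell in E1-KO or E2-KO, and 2 fell in E3-KO (medians 0.11, 0.046 and -0.28), so the share that rose was near that of all genes (15%, 14.2% and 13.9%), as was the share that fell in E3-KO (30.8%). Hells, a chromatin remodeller that DNA methylation needs at repeats, was the one that rose. It stood at 168.3 and 180.6 FPKM (WT), 383.0 and 360.4 (E1-KO), 338.0 and 235.1 (E2-KO), and 249.1 and 342.7 (E3-KO), with log2 fold changes of 1.09, 0.69 and 0.74 (adjusted p = 0.00278, 0.0212 and 0.0123). Within each knockout, the sample with more Hells was also the one with more Dnmt3a. The same order held for Ahcy, of the methyl donor list below, and among others for Tet1, Lig1, Trim28, Setd2 and Nsd1. The share of all genes with this order was not counted, so the order does not set Hells, Dnmt3a or Ahcy apart. With 1 pair of samples in each knockout, a relation between these genes was not tested. Cdca7, whose product activates HELLS, and its relative Cdca7l fell in E3-KO, with log2 fold changes of -0.65 and -0.60 (adjusted p = 0.00221 and 0.00414). The Hells calls were lost in E2-KO without E2-KO replicate 1, WT replicate 1 or WT replicate 2 (0.43, 0.64 and 0.74, adjusted p = 0.113, 0.111 and 0.0805) and in E3-KO without E3-KO replicate 2, WT replicate 1 or WT replicate 2 (0.51, 0.69 and 0.79, adjusted p = 0.078, 0.0726 and 0.0529).

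Among 16 genes for targeting and protection at silenced loci, of which 15 were tested, E1-KO had 2 that rose and 2 that fell, E2-KO 4 and 2, and E3-KO 4 and 3 (medians 0.038, 0.10 and 0.13). These 4, 6 and 7 called genes of 15 stand beside a background of 38%, 36.1% and 44.7%, and nothing about the list is read from them. The ones that fell in all knockouts were Prdm14 and Dppa3. Prdm14 encodes a repressor known to hold down the de novo methyltransferase genes in ES cells. It stood at 19.5 and 21.7 FPKM (WT), 11.1 and 11.5 (E1-KO), 13.7 and 15.3 (E2-KO), and 14.5 and 13.0 (E3-KO). Every knockout sample lay below WT, and Prdm14 fell in each, with log2 fold changes of -0.81, -0.48 and -0.55 (adjusted p = 0.00112, 0.0123 and 0.0051). The E2-KO call was lost without E2-KO replicate 1 or WT replicate 2 (-0.40 for each, adjusted p = 0.0635 and 0.105), and the E3-KO call without WT replicate 2 (-0.47, adjusted p = 0.0541).

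Dppa3 encodes a factor that guards DNA from methylation and keeps UHRF1 off chromatin in germ cells and ES cells. Its mean ± SD (n = 2) was 16.5 ± 2.14 FPKM (WT), 2.25 ± 0.841 (E1-KO), 1.72 ± 0.0501 (E2-KO) and 8.07 ± 1.70 (E3-KO). Dppa3 fell in each, with log2 fold changes of -2.45, -2.68 and -0.96 (adjusted p = 0.000119, 8.92e-05 and 0.00525). Dppa3 lies on chromosome 6, and with that chromosome's median subtracted in E3-KO its difference there was -0.34 (adjusted p = 0.202). Of the genes that rose, Ehmt1, a histone methyltransferase gene, went up by 0.89 in E1-KO (adjusted p = 0.00471), and Kdm2b, whose product binds unmethylated CpG islands, by 0.71 in E3-KO (adjusted p = 0.00113). For Ehmt1, the E2-KO difference of 0.49 missed the threshold (adjusted p = 0.0552). Its E2-KO samples stood at 41.0 and 31.0 FPKM, beside 24.8 and 25.4 in WT. Ehmt1 also rose by 0.55 in E3-KO (adjusted p = 0.0297), a call lost without E3-KO replicate 2 (0.30, adjusted p = 0.181), WT replicate 1 (0.54, adjusted p = 0.116) or WT replicate 2 (0.57, adjusted p = 0.104).

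Of 7 genes for methyl-CpG readers 6 were tested, and E1-KO had 2 that rose, E2-KO 1 that rose and E3-KO 1 that fell (medians 0.19, -0.091 and -0.11), beside 38%, 36.1% and 44.7% of all genes called in either direction. Mbd3, a subunit of the NuRD complex, rose by 0.44 in E1-KO and 0.48 in E2-KO (adjusted p = 0.0139 and 0.00959). Mbd4, a glycosylase with a methyl-CpG binding domain, rose by 0.36 in E1-KO (adjusted p = 0.0367) and fell by 0.83 in E3-KO (adjusted p = 0.000778). It is on chromosome 6, and the E3-KO difference was -0.21 after subtraction of that chromosome's median (adjusted p = 0.162). The Mbd3 calls were lost in E1-KO without E1-KO replicate 1 or WT replicate 1 (0.36 and 0.35, adjusted p = 0.115 and 0.111) and in E2-KO without WT replicate 1 (0.40, adjusted p = 0.0854), and the Mbd4 call in E1-KO without any 1 of the E1-KO and WT samples (0.30 to 0.42, adjusted p up to 0.205).

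Base excision repair genes went both ways. Of 17 genes 16 were tested, and E1-KO had 3 that rose and 5 that fell, E2-KO 3 and 4, and E3-KO 3 and 8 (medians -0.015, -0.14 and -0.19). Of all genes 15%, 14.2% and 13.9% were called higher and 23%, 22% and 30.8% lower, so the counts in E1-KO and E2-KO were near the background. Neil2, a glycosylase gene, had means of 5.09 FPKM (WT), 1.59 (E1-KO), 1.30 (E2-KO) and 0.937 (E3-KO), and fell in each (log2 fold changes -1.24, -1.41 and -1.65, adjusted p = 0.0007, 0.000457 and 0.000138). Polb, which encodes the polymerase that fills the repaired gap, rose by 0.95, 0.54 and 0.71 (adjusted p = 0.000415, 0.00565 and 0.00116). Neil3, another glycosylase gene, fell in E2-KO and E3-KO (log2 fold changes -1.21 and -0.99, adjusted p = 0.000955 and 0.00168). In E1-KO it fell by 0.49 (adjusted p = 0.0414), a call lost without any 1 of the E1-KO and WT samples (-0.57 to -0.41, adjusted p up to 0.198). Apobec2, a member of the cytidine deaminase family, rose by 0.92 in E1-KO (adjusted p = 0.000764), and by 0.42 in E2-KO (adjusted p = 0.0233), where the call was lost without any 1 of the E2-KO and WT samples (0.39 to 0.46, adjusted p up to 0.118).

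Genes for the methyl donor and for TET cofactors fell more often than they rose, as did all tested genes. Of 9 genes, all tested, E1-KO had 1 that rose and 5 that fell, E2-KO 1 and 4, and E3-KO 2 and 5 (medians -0.33, -0.17 and -0.38). The shares of all genes were 15%, 14.2% and 13.9% called higher and 23%, 22% and 30.8% lower. Under median-ratio scaling 48.7%, 50.4% and 49.9% of all called genes were higher, and the list was not recounted. Idh2, the mitochondrial enzyme that makes the TET cosubstrate 2-oxoglutarate, had a mean of 130.5 ± 6.81 FPKM (WT), 53.2 ± 1.23 (E1-KO), 56.0 ± 3.37 (E2-KO) and 52.7 ± 1.89 (E3-KO). The 6 knockout samples lay within 51.4 to 58.4 FPKM, far below the WT samples, and Idh2 fell in each (log2 fold changes -1.28, -1.21 and -1.29, adjusted p = 6.73e-05, 9.56e-05 and 6.03e-05). Idh1, the cytosolic enzyme that makes the same cosubstrate and is named here after its values were seen, stood at 70.3 and 71.1 FPKM (WT), 87.2 and 94.97 (E1-KO), 99.4 and 91.3 (E2-KO), and 98.9 and 88.8 (E3-KO). All knockout samples lay above WT, and Idh1 rose in each (log2 fold changes 0.36, 0.42 and 0.40, adjusted p = 0.0214, 0.0112 and 0.011). Its calls were lost in all 3 without WT replicate 1 or WT replicate 2 (adjusted p = 0.0654 to 0.108) and in E1-KO also without E1-KO replicate 1 or 2 (0.42 and 0.30, adjusted p = 0.0649 and 0.146). Ogt, whose product binds and glycosylates TET proteins, had means of 87.6 (WT), 50.5 (E1-KO), 47.2 (E2-KO) and 58.8 FPKM (E3-KO) and fell in each (log2 fold changes -0.78, -0.88 and -0.57, adjusted p = 0.000723, 0.00048 and 0.00232). D2hgdh, which clears the TET inhibitor 2-hydroxyglutarate, fell in each (log2 fold changes -0.79, -0.85 and -0.51, adjusted p = 0.00237, 0.00197 and 0.0137), the E3-KO call being lost without WT replicate 1 (-0.42, adjusted p = 0.105) and under quantile normalization or median-ratio scaling (-0.34 and -0.37, adjusted p = 0.0738 and 0.0532). Ahcy, which removes the product of methyl transfer, stood at 95.3 and 98.3 FPKM (WT), 202.0 and 180.1 (E1-KO), 207.9 and 109.1 (E2-KO), and 141.4 and 296.0 (E3-KO), with every knockout sample above WT. The difference of 0.97 in E1-KO missed the threshold (adjusted p = 0.0521) and was called under 7 of 18 alternatives (adjusted p down to 0.00031), and that of 0.63 in E2-KO did not pass (adjusted p = 0.181). Ahcy rose by 1.07 in E3-KO (adjusted p = 0.0318), and the call was lost without E3-KO replicate 2, WT replicate 1 or WT replicate 2 (0.54, 1.05 and 1.09, adjusted p = 0.21, 0.113 and 0.108).

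**Figure D4:**
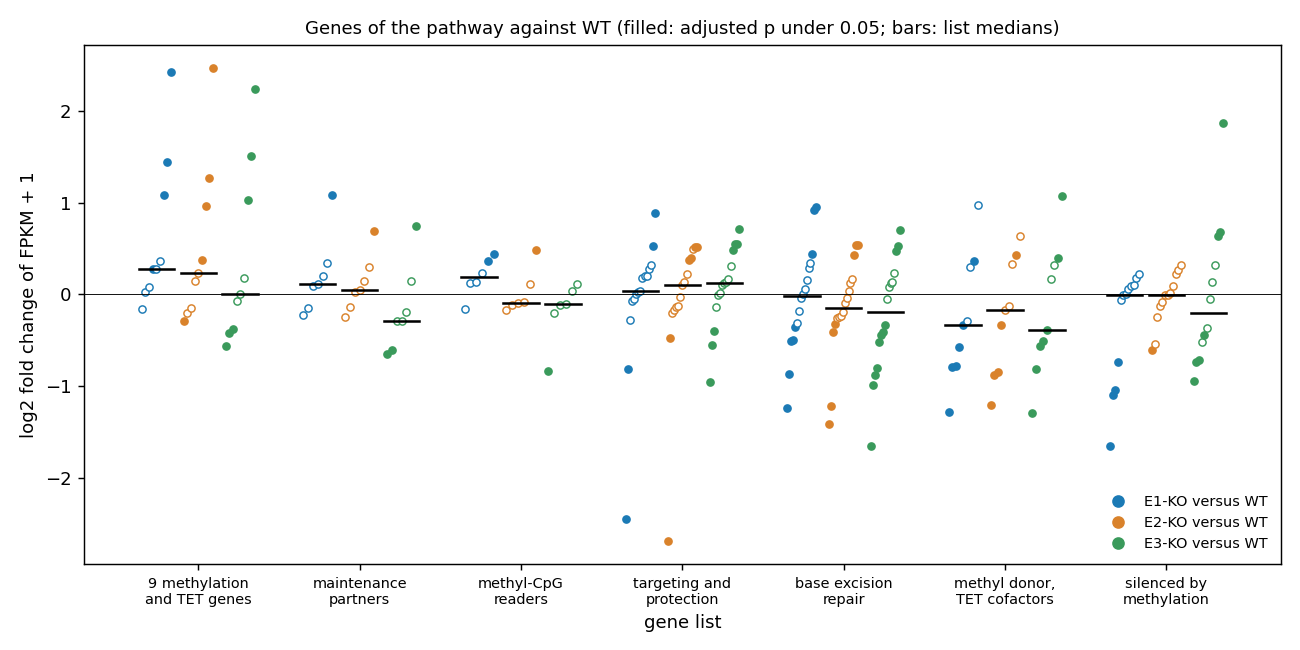
Log2 fold change of FPKM + 1 against WT for the 9 genes and 6 lists of pathway genes, with points for single genes (filled where the adjusted p-value was under 0.05) and bars for list medians. The list medians lie between -0.38 and 0.28, and single genes such as Dppa3 (down to -2.68) and Dnmt3l (up to 2.46) lie farthest from 0.

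Germline genes that promoter methylation is known to silence were read as known targets. Of 13 such genes 12 were tested, and E1-KO had none that rose and 4 that fell, E2-KO none and 1, and E3-KO 3 and 4 (medians -0.0036, -0.0065 and -0.21), where 23%, 22% and 30.8% of all genes were called lower, so the counts that fell in E1-KO and E3-KO were near the background. Dazl, a germ cell RNA-binding protein gene, stood at 151.9 and 152.6 FPKM (WT), 59.7 and 83.8 (E1-KO), 101.2 and 98.7 (E2-KO), and 110.7 and 76.9 (E3-KO). All knockout samples lay below WT, and Dazl fell in each (log2 fold changes -1.09, -0.60 and -0.72, adjusted p = 0.0025, 0.0336 and 0.0135). Asz1, a piRNA pathway gene, fell by 1.65 in E1-KO (adjusted p = 0.000925), from 3.27 and 3.74 FPKM in WT to 0.431 and 0.439. In E3-KO it fell by 0.94 (adjusted p = 0.00897), and with the median of chromosome 6, where it lies, subtracted it differed by -0.33 (adjusted p = 0.264). Tex101, a testis surface protein gene, moved in opposite directions. It fell by 1.04 in E1-KO (adjusted p = 0.04) and rose by 1.87 in E3-KO (adjusted p = 0.00262), from 2.31 and 2.46 FPKM in WT to 0.518 and 0.790 in E1-KO and 18.4 and 6.86 in E3-KO. The E3-KO values rested on single samples, at 1.22 for Tex101 without E3-KO replicate 1 and -0.59 for Asz1 without E3-KO replicate 2, with both calls kept. Tuba3a, an alpha-tubulin gene on chromosome 6, fell by 0.74 in E3-KO (adjusted p = 0.00253), and by the same subtraction differed by -0.12 (adjusted p = 0.487). The list therefore did not move as a block. The Dazl call was lost in E2-KO without any 1 of the E2-KO and WT samples (-0.62 to -0.58, adjusted p up to 0.132) and in E3-KO without E3-KO replicate 2, WT replicate 1 or WT replicate 2 (-0.46, -0.72 and -0.71, adjusted p = 0.0839, 0.0613 and 0.0678), the Asz1 call in E3-KO without WT replicate 2 (-0.87, adjusted p = 0.0629), and the Tex101 call in E1-KO without any 1 of the samples of E1-KO, E2-KO and WT (-1.16 to -0.92, adjusted p up to 0.169). Without the filter on low values, further calls of the lists were lost, those of Hells and Dazl in E2-KO (adjusted p = 0.0583 and 0.0817), of Mbd4, Neil3 and Tex101 in E1-KO (adjusted p = 0.0509, 0.0881 and 0.103) and of Ehmt1 and Ahcy in E3-KO (adjusted p = 0.0677 and 0.0858). Quantile normalization ended those of Hells in E2-KO and Neil3 in E1-KO (adjusted p = 0.0625 and 0.136), and scaling without the 50 highest genes those of Mbd4 and Neil3 in E1-KO (adjusted p = 0.0612 and 0.0521).

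Dnmt3b and Dnmt3l each had higher correlations with some other genes than with each other or with Dnmt3a. Among 8395 other genes whose mean reached 5 FPKM, those with the highest Pearson r to Dnmt3b over the 8 samples were Pitpna (0.996), Ripk1 (0.995) and Snf8 (0.990), and those closest to Dnmt3l were Clta (0.995), Nsfl1c (0.993) and Syf2 (0.992). For Tet1 they were Dcun1d4 (0.982), Chp1 (0.960) and 2610021A01Rik (0.959), and for Tet2 a gene with no symbol in the name table (ENSMUSG00000029144, 0.996), Map2k4 (0.986) and Ywhae (0.986). With 4 groups of 2 samples in shared libraries and this many genes ranked, high values arise readily, and they are given as a description.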

How the data were processed

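Total RNA of 8 samples had been depleted of ribosomal RNA and sequenced as paired reads of 150 bases, per the labels' protocols. The authors deposited 1 value per gene and sample, taken here as FPKM because Cufflinks 2.2.1 is named in the submitters' processing notes, beside Trimmomatic 0.36, TopHat2 2.0.12 and the build mm9. No header states the unit. Over the 3459 genes listed at 0 in at least 1 sample, the smallest value above 0 fell with exon length (Spearman rho -0.709), as what 1 read is worth in FPKM does. The annotation, strand handling and depth are not given in the sources used here. Coordinates are from GENCODE M21 on GRCm38, not from the files, which carry none. Of 660 identifiers with several rows, 578 were kept at the row in the gene's own place in the order of the files and 82 were left out, none of them a gene of the methylation set. In the pathway lists, Kdm2b, Neil1 and Apobec2 had several rows, and each was kept at 1 row. Symbols came from a gene name table (17262 identifiers).

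Genes whose mean reached 1 FPKM were tested with limma 3.58.1 (limma-trend, R 4.3.3) on log2(FPKM + 1), with all 8 samples and the group as the only term, which left 4 residual degrees of freedom. The code was tested on simulated data with 200 of 11271 genes changed in E1-KO. Of changes of 0.5, 1 and 2 on the log2 scale, 0.5%, 82% and 97.5% were recovered in E1-KO against WT. Far more genes were called in the data, so these shares need not hold there. Alternatives covered a replicate block, the samples of 2 groups alone, scaling, pseudocount, filter, trend, summed repeated rows, and leaving out each sample. The genes named are the 9 of the set and, in each pathway list, up to 4 called genes with the largest absolute change, and 1 list gene is not reported here. Idh1 was added after its values were seen. The set and the lists were chosen with earlier results of these data known. The labels call the samples of a group biological duplicates and give no more on their origin, so p-values measure the spread between these samples.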

Additional observations from a re-analysis of the deposited data

Results flagged for a closer look

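A difference between 2 knockout groups passed the limma test for 4 pairs of gene and comparison. For Dnmt3b, E3-KO minus E1-KO was 0.43 on the log2(FPKM + 1) scale. Tet3 differed by -0.78 between E3-KO and E1-KO and by -0.79 between E3-KO and E2-KO, and by -0.16 and -0.18 (limma, adjusted p = 0.37 and 0.38) with the chromosome 6 median subtracted in E3-KO. Tdg differed by -0.59 between E3-KO and E1-KO, and this call held under all alternatives run for it.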

How the results depend on the processing

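The calls of Dnmt3b and Dnmt3l against WT in all 3 knockouts, of Dnmt3a in E1-KO and of Tdg in E3-KO kept their direction and their side of the threshold under the 18 alternatives run for each. Over all named genes and comparisons, 2020 alternative values kept direction and call, 130 lost a call, 35 gained one and 24 changed sign. Samples with the same replicate number did not deviate together (correlations -0.043 to 0.089 between groups), so the number is not a pairing. With a replicate block, 4056, 3854 and 4808 genes were called in E1-KO, E2-KO and E3-KO against WT, 2686 and 1526 in E3-KO against E1-KO and E2-KO, and 31 in E2-KO against E1-KO, and 5, 4 and 6 of the 9 genes were called against WT. Tet3 in E1-KO then passed (adjusted p = 0.045), while Tdg and Dazl in E2-KO (adjusted p = 0.051 and 0.0507) and Neil3 and Tex101 in E1-KO (adjusted p = 0.0533 and 0.0525) did not, and no other call of a named gene changed. Leaving out 1 sample gave 2040 to 4671 called genes in E1-KO, 1870 to 4453 in E2-KO and 2828 to 5339 in E3-KO against WT, 2 to 261 in E2-KO against E1-KO, 1309 to 3276 in E3-KO against E1-KO and 974 to 1550 in E3-KO against E2-KO. Of the 9 genes it gave 2 to 5 in E2-KO and 3 to 6 in E3-KO against WT and 1 to 2 in E3-KO against E2-KO. The samples of 2 groups alone gave 1 called gene in E2-KO against E1-KO, 672 in E3-KO against E2-KO, and 3 of the 9 genes in E2-KO against WT. For E2-KO against E1-KO, no filter gave 1 and a mean of at least 5 FPKM gave 58. The log2 balance ratio against WT, 1.60, 1.79 and 1.75 in E1-KO, E2-KO and E3-KO, was 1.15, 1.29 and 1.44 without Dnmt3l.

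Signs turned only for differences that were not called, except that of Tet3 in E3-KO against WT, which was 0.20 with the chromosome 6 median subtracted. Under quantile normalization, Uhrf1 in E3-KO was -0.039, Tet1 in E1-KO -0.059 and Tuba3a in E2-KO -0.0075. Under median-ratio scaling, Tet1 in E3-KO was 0.10 and Tet2 in E3-KO minus E1-KO 0.00019. Scaling without the 50 highest genes put Tet3 in E2-KO minus E1-KO at -0.024. Leaving out 1 sample gave, against WT, -0.12 to 0.13 for Uhrf1 in E3-KO, -0.20 to 0.058 for Tet1 in E3-KO, and -0.024 to 0.078 for Tdg and -0.074 to 0.15 for Kdm2b in E1-KO. Between knockouts it gave -0.85 to 0.028 for Dnmt3a in E3-KO minus E1-KO and -0.37 to 0.51 in E3-KO minus E2-KO, -0.33 to 0.42 for Dnmt3l in E2-KO minus E1-KO and -0.60 to 0.16 in E3-KO minus E2-KO, -0.13 to 0.035 for Uhrf1 and -0.041 to 0.062 for Tet3 in E2-KO minus E1-KO, and -0.052 to 0.21 for Tet1 and -0.013 to 0.059 for Tet2 in E3-KO minus E2-KO. The causes were not tested. With 2 samples a group and no read counts, intervals for counting error could not be given.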
